A study of Mus musculus with 6 samples.

Results

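A set of 29 transcripts made mainly by the liver was followed in gastrocnemius, the large calf muscle, of old mice. They are 29 of 23282 rows of gene counts, and each was found in the tables by its symbol: 5 carrier proteins of plasma, 6 apolipoproteins, 4 genes of clot formation and its removal, 8 protease inhibitors, 5 genes of hepatocyte metabolism and uptake, and Wfdc21. They were picked because their counts were higher in muscle of mice given inotodiol than in muscle of mice given vehicle, so that direction is the reason for the choice. Their fold changes are given below as a description, and counts of genes past a threshold are set once beside the share of all genes, with nothing read from them. The mice were wild-type males of the C57/BL6J strain, aged 20 months. Inotodiol, a triterpenoid of the chaga mushroom, was given by mouth each day for 10 weeks at 0.35 mg/kg to 3 mice; the 3 control mice received the vehicle of 40% polyethylene glycol, a Tween detergent and 0.9% saline. Each mouse gave 1 library of total RNA from the muscle, and the labels call the samples of a group biological replicates.

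Hepatocytes make most proteins of blood plasma and secrete them. Their genes are switched on together by a small set of liver transcription factors, among them HNF1, HNF4, C/EBP and FOXA proteins, which bind close to the start of these genes. Muscle fibres are not known as a main source of these proteins, which reach muscle through the blood.

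Promoters were taken from the RefSeq promoter table (GRCm38.p6, the same assembly as mm10), in which 22 of the 29 genes matched by symbol; where a gene has several starts the first listed was used. For the first gene of each functional group by counts among those with an entry, and for a second gene of the Serpina1 family, a stretch of up to 150 bases from the 250 before the annotated start is shown in transcript direction, clear of annotated exons, to show the short motifs that these promoters share. Capitals mark letters that match 1 of 5 motifs on either strand: GTTAAT for HNF1, CAAAGNCCA for HNF4, TTGCNNAA for C/EBP, TGTTTNC for FOXA and TATAAA for the TATA box, where N is any base.
Alb, chr5:90460720-90460869, plus strand: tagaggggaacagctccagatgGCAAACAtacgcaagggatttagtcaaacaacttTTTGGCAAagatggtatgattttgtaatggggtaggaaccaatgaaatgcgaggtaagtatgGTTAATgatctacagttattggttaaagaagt
Apoa1, chr9:46228430-46228579, plus strand: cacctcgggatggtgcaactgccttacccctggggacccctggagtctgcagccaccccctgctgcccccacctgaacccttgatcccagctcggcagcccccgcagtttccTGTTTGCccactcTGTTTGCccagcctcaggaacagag
Fgb, chr3:83049864-83050013, minus strand: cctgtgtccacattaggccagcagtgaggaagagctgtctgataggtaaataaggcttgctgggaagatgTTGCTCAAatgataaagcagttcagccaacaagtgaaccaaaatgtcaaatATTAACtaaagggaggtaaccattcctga
Serpina1e, chr12:103956899-103957048, minus strand: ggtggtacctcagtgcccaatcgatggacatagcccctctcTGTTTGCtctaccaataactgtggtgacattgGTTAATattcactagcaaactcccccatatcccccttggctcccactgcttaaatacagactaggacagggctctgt
Serpina1a, chr12:103863620-103863769, minus strand: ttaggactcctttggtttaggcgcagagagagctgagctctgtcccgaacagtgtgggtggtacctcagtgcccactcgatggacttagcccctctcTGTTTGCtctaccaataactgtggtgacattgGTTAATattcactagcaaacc
Cyp3a11, chr5:145879965-145880104, minus strand: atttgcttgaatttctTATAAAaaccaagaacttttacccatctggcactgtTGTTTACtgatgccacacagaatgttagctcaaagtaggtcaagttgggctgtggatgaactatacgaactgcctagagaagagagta

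Over the 250 bases before the start, 13 of the 22 genes (59.1%) held the HNF1 letters, against 6.52% of the 27025 genes in the table. The FOXA letters were in 17 of 22 (77.3%) against 17.9% of all, and the C/EBP letters in 10 of 22 (45.5%) against 9.55%. The HNF4 letters were in 1 gene, Cyp3a11 (4.55%), against 1.67%, and TATAAA in 5 (22.7%) against 13.0%. The 5 Serpina1 genes have near-copies of 1 promoter and all held the HNF1 and FOXA letters, so they are not independent examples: within the 250 bases their promoters were from 92.1% to 98.0% identical in pairs where they aligned. In the stretches shown, Serpina1e and Serpina1a hold the same FOXA and HNF1 letters in the same order, shifted against each annotated start. A match to these letters is not evidence that a factor binds.

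**Figure D1:**
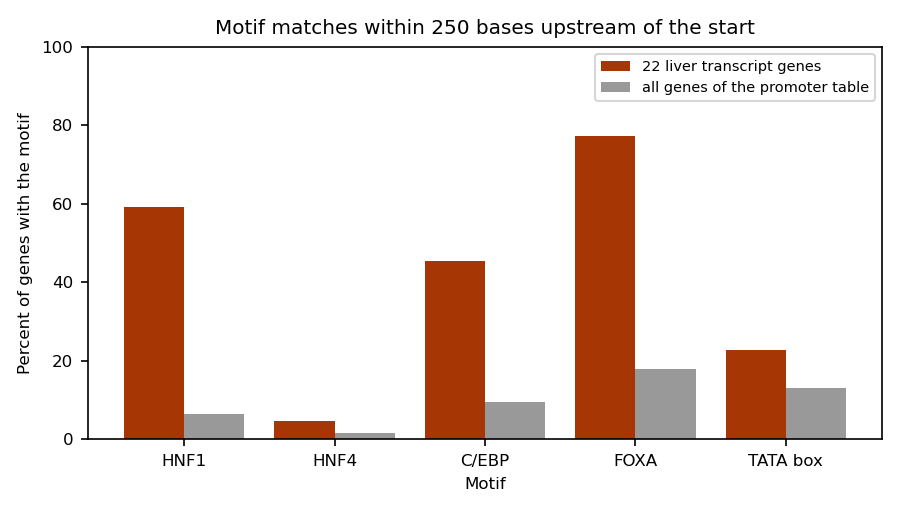
Bars give the percent of genes whose 250 bases before the annotated start hold each motif on either strand, for the 22 liver transcript genes with an entry and for all 27025 genes of the promoter table. The share was higher among the 22 genes for HNF1 (59.1% against 6.52%), FOXA (77.3% against 17.9%) and C/EBP (45.5% against 9.55%).

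Libraries held from 8961893 to 9953764 counts. The tissue label was met by its markers: 10 genes of fast skeletal muscle, such as the myosin gene Myh4 and the actin gene Acta1, took from 166788 to 184605 CPM (counts per 1000000 counts of the library, unscaled) in every library. Against this the 29 liver transcripts were minor, at 0.00241% to 0.0951% of all counts. Inotodiol 1 stood apart in holding transcripts of exocrine pancreas as well (values below), so the main results are also given without it.

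Summed over the 29 genes, the vehicle libraries held 216, 1203 and 848 counts, in the order of their replicate numbers, and the inotodiol libraries 9464, 3733 and 1416. As CPM these are 24.1, 130.2 and 88.3 with vehicle and 951, 385 and 148 with inotodiol, or 80.9 ± 53.4 and 495 ± 412 (SD, n = 3). Inotodiol 1 and inotodiol 2 stood well above all others, vehicle 1 well below, and the groups did not overlap. Inotodiol 3 lay close to vehicle 2, with exact 95% binomial intervals of 141 to 156 CPM and 123 to 138 CPM that cover counting error only. Within the inotodiol group the highest library held 6.41 times the lowest level, and within the vehicle group 5.40 times; without inotodiol 1 and without vehicle 1 these ratios were 2.59 and 1.47. In bulk muscle, fewer cells of a type and less RNA per cell cannot be told apart. The ratio of group means, 6.12, therefore rests mostly on 2 libraries; as a difference of mean log2 CPM it was 2.54, and 1.87 without inotodiol replicate 1.

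**Figure D2:**
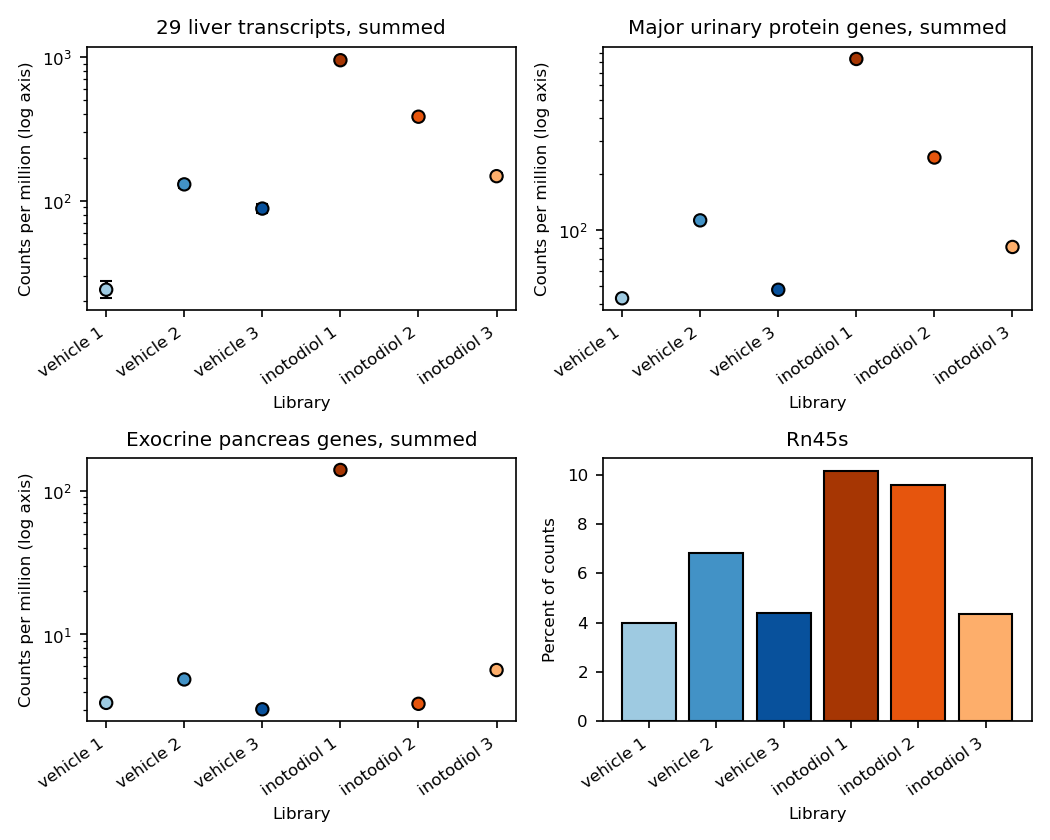
Each point or bar is 1 library: the summed CPM of the 29 liver transcripts (log axis, bars are exact 95% binomial intervals), of the major urinary protein genes and of exocrine pancreas genes (log axes), and the percent of counts from the ribosomal RNA precursor Rn45s. Inotodiol 1 is highest in all 4 panels, at 951 CPM for the liver transcripts and 139 CPM for the pancreas genes, which lay between 3.02 and 5.66 CPM in the other libraries.

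Among the carriers, Alb, which encodes albumin (chromosome 5, 90460897 to 90476602), was counted 61, 272 and 172 times in the vehicle libraries, in the order 1 to 3, and 2320, 938 and 388 times in the inotodiol libraries. Every inotodiol value was above every vehicle value, also in CPM. Ttr, the carrier of thyroid hormone and retinol-binding protein, had 13, 64 and 53 counts with vehicle and 604, 199 and 75 with inotodiol. Its groups were parted only narrowly, since inotodiol 3 had 1.14 times the CPM of vehicle 2. Ahsg, fetuin-A, a plasma protein that keeps calcium phosphate in solution, had 11, 65 and 24 counts with vehicle and 412, 147 and 51 with inotodiol. Here the groups overlapped, because vehicle 2 exceeded inotodiol 3. Gc, the vitamin D binding protein, had 8, 24 and 23 counts against 257, 138 and 35, with no overlap. Hpx, hemopexin, which binds free haem, had 0, 13 and 6 counts against 138, 35 and 12, and overlapped.

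In edgeR's quasi-likelihood fit over all 11700 genes tested, the log2 fold changes of inotodiol over vehicle were 2.91 ± 0.54 (SE) for Alb, 2.82 ± 0.62 for Ttr, 2.65 ± 0.66 for Ahsg, 3.03 ± 0.60 for Gc and 3.31 ± 0.96 for Hpx.

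Apolipoproteins carry lipid in plasma. Apoa1 (chromosome 9, 46228580 to 46230466), the main protein of high-density lipoprotein, had 14, 80 and 59 counts in vehicle libraries and 468, 217 and 77 in inotodiol libraries. Apoa2, its partner on the same particle, had 6, 50 and 46 counts against 269, 95 and 47. In both genes inotodiol 3 lay below vehicle 2 in CPM, so the groups overlapped. Apoc1, which macrophages also make, had 15, 31 and 19 counts against 235, 55 and 25, and overlapped as well. The 10 macrophage markers listed here took 151, 116 and 344 CPM in vehicle libraries and 219, 67.6 and 121 CPM in inotodiol libraries; their part in the Apoc1 level was not tested. Apoc3, an inhibitor of lipoprotein lipase that lies beside Apoa1, had 1, 15 and 20 counts against 97, 43 and 23, without overlap.

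Apoh, which binds phospholipid surfaces, had 0, 8 and 4 counts against 57, 40 and 10. Apob, the core protein of low-density lipoprotein, was below the filter on low counts with 1, 3 and 3 counts against 39, 14 and 5. The log2 fold changes were 2.38 ± 0.58 for Apoa1, 2.07 ± 0.64 for Apoa2, 2.33 ± 0.66 for Apoc1, 2.24 ± 0.74 for Apoc3 and 3.18 ± 0.95 for Apoh.

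The 3 fibrinogen chains, which polymerise into the clot, lie together on chromosome 3 between 83007724 and 83049863. Fgb had 4, 54 and 40 counts with vehicle and 435, 155 and 47 with inotodiol. Fgg had 1, 13 and 2 counts against 108, 35 and 12. In both chains vehicle 2 exceeded inotodiol 3 in CPM and the groups overlapped. Fga held at most 9 counts, reached in inotodiol 1, and at most 2 elsewhere, and was not tested. Plg, whose product plasmin dissolves fibrin, had 0, 10 and 1 counts against 77, 26 and 12. Its inotodiol values were all above its vehicle values, by 1.16 times at the closest pair. The log2 fold changes were 2.76 ± 0.72 for Fgb, 3.29 ± 0.93 for Fgg and 3.38 ± 1.05 for Plg.

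Of the protease inhibitors, Serpina3k, a clade A serpin of mouse liver (chromosome 12, 104338486 to 104346144), had 18, 115 and 85 counts in vehicle libraries and 956, 466 and 133 in inotodiol libraries. The 5 Serpina1 genes, mouse copies of alpha-1-antitrypsin, which restrains neutrophil elastase, lie between 103728156 and 103958975 of the same chromosome. Serpina1e had 12, 63 and 83 counts against 572, 248 and 95. Serpina1c had 10, 68 and 37 counts against 437, 152 and 72. The groups of Serpina3k and of all 5 Serpina1 genes did not overlap. At the closest pair of libraries, inotodiol 3 exceeded the vehicle library by only 1.03 to 1.30 times. That vehicle library was vehicle 2, except for Serpina1e, where it was vehicle 3, at 1.15 times.

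Single Serpina1 genes are uncertain, since how the counting treated reads shared by near-identical copies is not known. The last 500 bases of their longest coding transcripts in GENCODE M21 were from 94.2% to 96.4% identical over the 10 pairs. Of all stretches of 50 bases in that end, between 16.4% (Serpina1e) and 41.5% (Serpina1d) also occur in another Serpina1 transcript. Without the 5 genes the summed level was 20.8, 104.6 and 67.1 CPM with vehicle and 763, 315 and 118 CPM with inotodiol, in the same order of libraries. Pzp and Mug1 belong to the alpha-2-macroglobulin family, which traps proteases. Pzp had 2, 24 and 1 counts against 78, 35 and 12, and Mug1 had 1, 17 and 5 counts against 93, 47 and 12. Both overlapped between groups. Log2 fold changes over the 8 inhibitors ran from 2.23 ± 0.95 (Pzp) to 2.91 ± 0.75 (Serpina1d).

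All 5 genes of hepatocyte metabolism were highest in inotodiol 1 and lowest in vehicle 1. Cyp3a11, a cytochrome P450 that oxidises drugs and steroids (chromosome 5, 145854426 to 145879964), had 1, 24 and 19 counts with vehicle and 240, 102 and 41 with inotodiol. Fabp1, the fatty acid binding protein of liver and intestine, had 4, 25 and 6 counts against 198, 62 and 28. Slco1b2, which takes up bile acids and other organic anions, had 1, 12 and 9 counts against 131, 40 and 18. None of these 3 genes overlapped between groups. Mat1a, which makes S-adenosylmethionine, had 1, 12 and 7 counts against 99, 30 and 6, and Bhmt, which remethylates homocysteine, had 3, 16 and 6 counts against 106, 64 and 8. Both overlapped, and in both inotodiol 3 held less than vehicle 2, at 0.484 times its CPM. The log2 fold changes ran from 2.79 ± 0.93 (Mat1a) to 3.18 ± 0.71 (Cyp3a11).

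Wfdc21, a small secreted protein with a whey acidic protein domain, had 19, 19 and 33 counts in vehicle libraries and 171, 72 and 44 in inotodiol libraries. Its groups did not overlap. It had as many counts in vehicle 1 as in vehicle 2, and in vehicle 1 it made up 8.80% of the counts of the 29 genes, against 1.58% to 3.89% in the other libraries. Its log2 fold change was 2.08 ± 0.49.

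**Figure D3:**
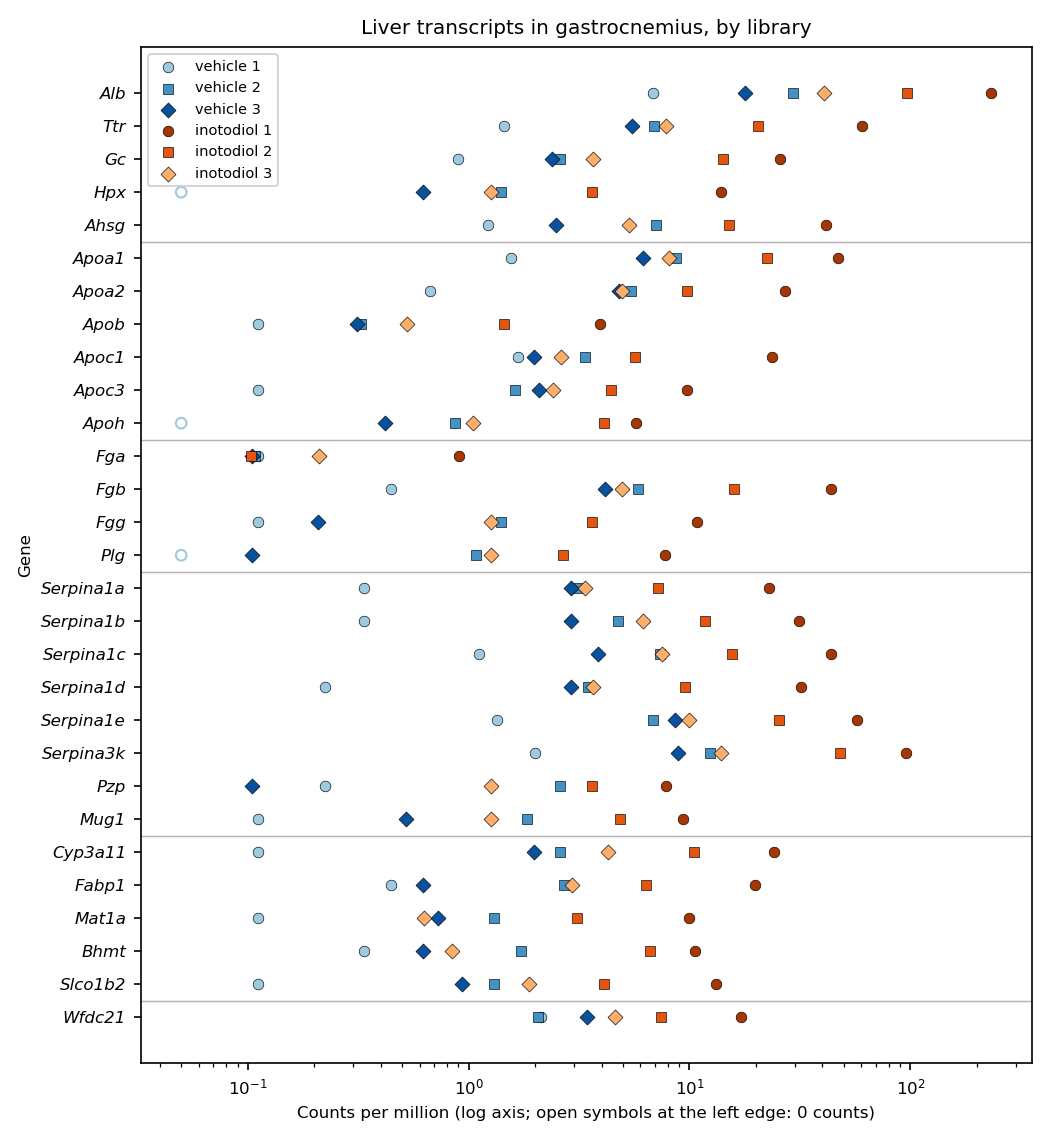
Each row is a gene and each symbol the CPM of 1 library on a log axis, with open symbols at the left edge for 0 counts; lines part the functional groups. Inotodiol 1 (dark red circles) is highest in all 29 genes, and inotodiol 3 (light diamonds) lies above vehicle 2 (mid-blue squares) in 18 of them.

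Among the 29 genes, inotodiol 1 was the highest library in 29, and the inotodiol libraries stood in the order 1, 2, 3 in 28; Fga was the exception. Vehicle 1 was the lowest library in 26, the exceptions being Fga, Pzp and Wfdc21. With CPM scaled by the trimmed mean of M-values (TMM), as in the fit, the groups did not overlap for 18 of the 29 genes, where 4.89% of all rows with a count had every inotodiol value above every vehicle value; with unscaled CPM it was 17, where that share was 2.52%. The genes were chosen on this contrast, so the excess over the background says nothing more about them.

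The edgeR fit called 0 of the 27 genes tested at an adjusted p under 0.05, and 0% of all 11700 genes; at an unadjusted p under 0.05 it had 27 of 27 and 4.87% of all genes. DESeq2 called 1, Gc, which was the only gene it called anywhere (0.00855% of genes). With no filter on low counts edgeR called 25 of 29 (0.576% of 16491 genes), all but Apob, Apoc3, Fga and Pzp. That fit also called genes high in 1 library only, such as Amy2a5 with 1, 9 and 5 counts against 485, 2 and 5. Alb had an edgeR adjusted p of 0.58 with the filter and 3.8e-12 without it, at a log2 fold change of 2.91 in both. Without inotodiol replicate 3 edgeR with the filter called 9 (0.206% of genes): Alb, Ttr, Gc, Ahsg, Apoa1, Serpina1e, Serpina3k, Cyp3a11 and Wfdc21. Over the 27 genes the median log2 fold change was 2.79, from 2.07 to 3.38, against -0.00073 over all genes tested. It was 1.78 without inotodiol replicate 1.

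**Figure D4:**
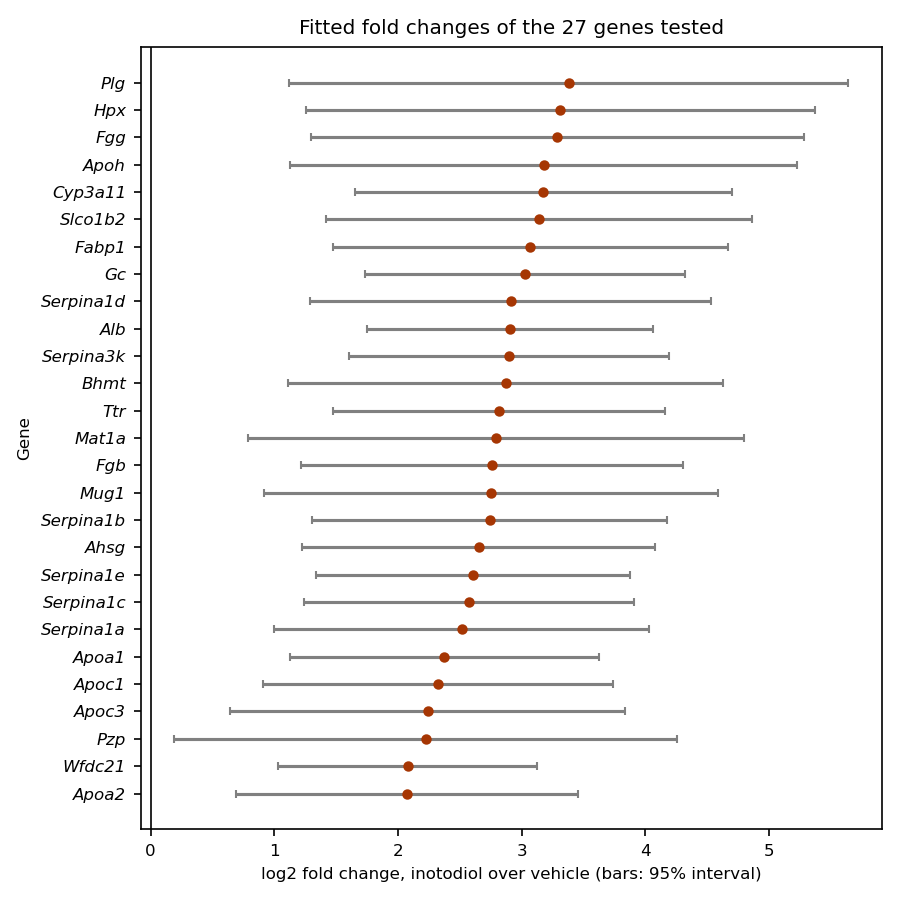
Points are log2 fold changes of inotodiol over vehicle from the edgeR fit and bars their 95% intervals, for the 27 genes tested, 3 libraries per group. Values run from 2.07 (Apoa2) to 3.38 (Plg); the genes were chosen for this direction and none had an adjusted p under 0.05.

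The spread of the genes between mice of the same group comes from the counts they were chosen on, and is a description. Within the inotodiol group the highest library exceeded the lowest by a median of 6.80 times over the 27 genes tested, from 3.72 times for Wfdc21 to 15.8 times for Mat1a. The same ratio had a median of 1.51 over the other genes tested, and of 1.53 over the 8678 of them with a mean level in the range of the 27 genes, 2.03 to 70.8 CPM. Between inotodiol 2 and 3 alone it was 2.61 for the 27 genes and 1.30 for other genes. Within the vehicle group it had a median of 7.34 over the 24 genes with a count in every vehicle library, and of 1.46 over other genes. Vehicle 1 set most of this: between vehicle 2 and 3 alone the median was 1.64 for the 27 genes and 1.25 for other genes. Of the 27 genes, 18 had under 10 counts in at least 1 vehicle library, so these ratios also hold counting error. The biological coefficient of variation had a median of 56.4% over the 27 genes and 24.5% over all genes. The 27 genes share the same 6 libraries and move together, so they are not independent examples of it. The standard errors of their log2 fold changes had a median of 0.71, against 0.28 over all genes.

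Within libraries the counts of several of the genes stood in similar proportions, which are shares of counts and not of transcripts. For each 100 Alb counts there were 19.3 to 30.8 Ttr counts, 13.1 to 23.9 Ahsg counts and 29.5 to 49.7 Serpina3k counts in any library. Other genes varied more, such as Fgb with 6.56 to 23.3 and Apoa2 with 9.84 to 26.7. Serpina1e stood at 48.3 in vehicle 3 and at 19.7 to 26.4 elsewhere. Cyp3a11 stood at 8.82 to 11.0 per 100 Alb counts in 5 libraries and at 1.64, a single read, in vehicle 1. The carriers made up 32.8% to 43.1% of the counts of the 29 genes and protease inhibitors 23.6% to 34.8%. Apolipoproteins made up 17.1%, 15.5% and 17.8% in vehicle libraries and 12.3%, 12.4% and 13.2% in inotodiol libraries. Their share did not overlap between groups, while the shares of all other functional groups did. It is thus a single share picked from several, with 3 libraries per group, and the difference was not tested. Between inotodiol 1, 2 and 3, whose summed levels differed 6.41-fold from highest to lowest, the carrier share was 39.4%, 39.0% and 39.6%. Across the 29 genes, log2 CPM of 2 libraries correlated with a median Pearson r of 0.90 (0.78 to 0.97) and a median Spearman rho of 0.92 (0.78 to 0.95) over the 15 pairs of libraries. These correlations are across genes, which differ in abundance in any tissue, and they carry no test. Apoc1 ran from 5.86 to 24.6 and Wfdc21 from 6.99 to 31.1 per 100 Alb counts, each highest in vehicle 1, where Alb was lowest.

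**Figure D5:**
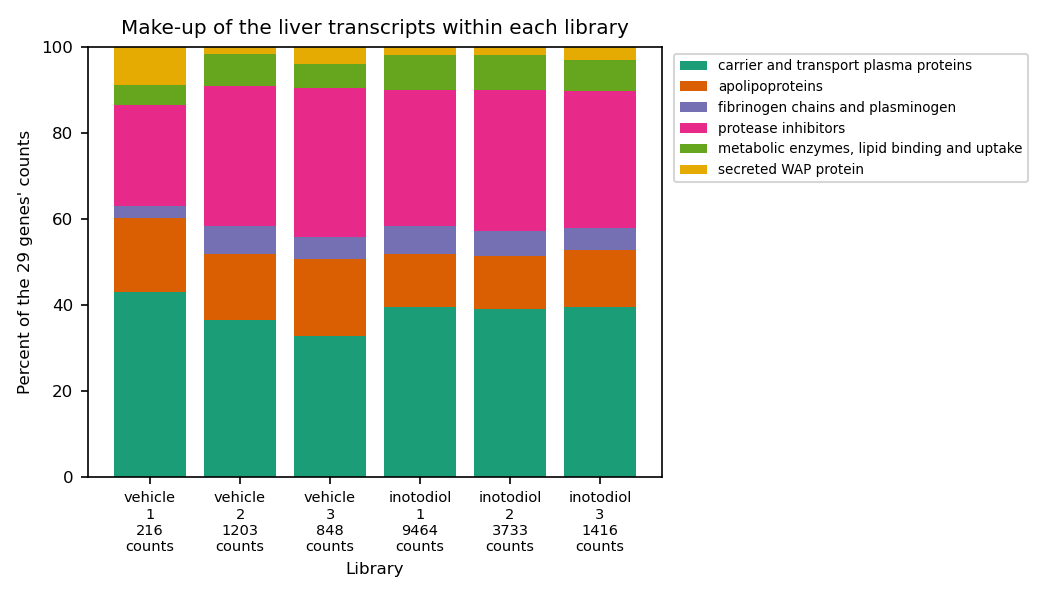
Stacked bars give the percent of the 29 genes' counts that each functional group took in each library, with the number of counts under each bar. The carrier share was 39.4%, 39.0% and 39.6% in inotodiol 1 to 3, while Wfdc21 took 8.80% in vehicle 1, the library with 216 counts. The apolipoprotein share was 15.5% to 17.8% in vehicle libraries and 12.3% to 13.2% in inotodiol libraries. The shares of all other functional groups overlapped between vehicle and inotodiol, and no share was tested.

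Other genes of the liver were then read from lists by function. Of 152 such genes in the tables, 58 were tested; 0 passed the adjusted threshold, 31 had an unadjusted p under 0.05 and were higher with inotodiol, where 2.67% of all genes did so, and 0 were lower at that p. The median log2 fold change of the 58 was 1.31, and over the same 58 genes it ran from 0.89 without inotodiol replicate 1 to 1.69 without vehicle replicate 2. Without inotodiol replicate 1, 15 of the 58 were higher at that p, where 1.97% of all genes were. Listed genes near 0 with vehicle, such as F2 and Ambp below, passed the filter on low counts only through their inotodiol libraries. Such genes could be tested only if higher, so the filter partly set the direction of these counts and medians. The lists were also chosen with earlier results of these data known. Leaving out a library also changed which genes passed the filter: without inotodiol replicate 3, 75 listed genes were tested, with a median of 2.61, and without vehicle replicate 2, 75 with a median of 2.55. The major urinary proteins, pheromone carriers that male mouse liver secretes in bulk, gave 16 of those 31: all 16 tested were higher at that p, with a median of 2.71. Without inotodiol replicate 1 it was 11 of the 16, with a median of 1.40. Their sum was 42.8, 112.5 and 47.6 CPM with vehicle and 831, 245 and 80.9 CPM with inotodiol, so vehicle 2 exceeded inotodiol 3. Mup2 had 122, 171 and 87 counts against 1394, 373 and 143, Mup15 had 22, 121 and 48 against 1023, 259 and 80, and Mup7 had 16, 90 and 44 against 764, 204 and 51. Single members of this near-identical family are uncertain. The 16 genes are therefore not independent examples among the 31, and their sum may count some reads more than once.

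Among 14 tested genes of other plasma proteins 7 were higher at an unadjusted p under 0.05. F2, prothrombin, was among them with 0, 9 and 3 counts against 58, 22 and 22, and so was Ambp, the precursor of alpha-1-microglobulin, with 2, 12 and 3 against 93, 20 and 13. The 3 genes with most counts in that list were not: complement C3 had 822, 476 and 1108 counts against 1231, 374 and 655, Trf, transferrin, 341, 243 and 263 against 643, 219 and 362, and Cp, ceruloplasmin, 308, 232 and 151 against 288, 191 and 306. Cells of many tissues make these proteins.

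Enzymes of the liver differed by gene. Arg1, the last enzyme of the urea cycle, had 1, 9 and 11 counts against 67, 24 and 7, and Cps1, its first, 0, 5 and 1 against 41, 18 and 5. Gnmt, which uses S-adenosylmethionine, had 28, 29 and 8 counts against 116, 45 and 18. Cyp2c29, a P450 of hepatocytes, had 1, 2 and 3 counts against 67, 16 and 5. As for Gnmt, vehicle 1 was not the lowest library for several other enzymes. Among them, Cyp2e1, an ethanol-oxidising P450, had 232, 92 and 95 against 184, 115 and 125. Pck1, of gluconeogenesis, had 147, 109 and 116 against 98, 107 and 117, and Glul, glutamine synthetase, 11535, 9217 and 12849 against 10787, 8107 and 13251. Of 12 acute phase genes, which liver raises in inflammation, 4 were tested and 1 was higher at an unadjusted p under 0.05, Orm1, with 14, 13 and 16 counts against 70, 30 and 26.

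The 94 listed liver genes with too few counts to be tested held 93, 193 and 183 counts in vehicle libraries and 1425, 542 and 250 in inotodiol libraries. Liver transcription factors were near the limit of detection: Hnf4a, which marks hepatocytes, had 0, 2 and 1 counts against 14, 2 and 1, and of the 15 factors listed only Cebpa, which fat cells also use, was tested, with 44, 51 and 89 counts against 55, 52 and 49.

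Markers of other cells and organs were read beside these values. Of 15 genes of Kupffer, stellate, sinusoidal and bile duct cells, Stab2 had the most counts, with 79, 19 and 67 against 56, 42 and 73. Reln had 50, 7 and 41 against 14, 16 and 37, and Spp1 26, 2 and 44 against 4, 8 and 29. The Kupffer cell gene Clec4f had at most 2 counts in a library, and Marco, Oit3 and Epcam had none. The list summed to 5.09 to 21.4 CPM with vehicle and 8.04 to 17.2 CPM with inotodiol. Of 12 intestine genes 7 were at 0 in all libraries, and Fabp2, the intestinal partner of Fabp1, had at most 3 counts. Anpep held most counts of that list, with 147, 104 and 227 against 148, 87 and 173. Of 10 kidney genes 8 were at 0 throughout. Exocrine pancreas genes stood apart in a single library: all 24 together held 139 CPM in inotodiol 1, led by the amylase gene Amy2a5 with 485 counts and the elastase gene Cela2a with 131, against 3.02 to 5.66 CPM in the other 5, where Amy2a5 had at most 9 counts. Rn45s, the precursor of ribosomal RNA, took 3.97%, 6.82% and 4.38% of counts in vehicle libraries and 10.2%, 9.56% and 4.33% in inotodiol libraries. Red blood cell genes were highest in inotodiol 2, at 19907 CPM, against 6482 to 11457 CPM elsewhere. The pairs Hbb-bs and Hbb-b1, and Hbb-bt and Hbb-b2, had nearly equal counts in every library. That sum may therefore count some reads more than once. The part of these differences in the level of the liver transcripts was not tested.

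Outside the list, the 12 genes whose log2 CPM over the 6 libraries was most like the mean of the liver transcripts had Pearson r from 0.981 to 0.994, given as a ranking with no test. Of these, 7 belonged to the liver lists, which held 58 of the 11673 genes ranked; among them were Mup3, Mup15, Mup17, Mup20, Azgp1 and Apoc4. Those outside the liver lists included the gene model Gm2083, the respiratory complex I gene Ndufb9, and Hmgxb3 and Adgrf5; Ndufb9 moved far less, with 5183, 5692 and 5946 counts in vehicle libraries against 6218, 5791 and 5883 in inotodiol libraries.

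Neighbouring genes were read as well. Of 51 other protein-coding genes within 50 kb of a liver transcript gene, 27 were tested, 1 was higher and 1 lower at an unadjusted p under 0.05, where 4.87% of all genes passed it in either direction, and the median log2 fold change was 0.027. Of the 24 not tested, 10 had no counts, and the other 14 together held 38, 28 and 68 counts with vehicle and 156, 92 and 19 with inotodiol; among them Serpina3m, which overlaps Serpina3k, had 0, 3 and 2 counts against 18, 6 and 1, and Mbl1, a liver lectin near Mat1a, 0, 1 and 0 against 11, 4 and 2. Among the 27 tested, the higher gene was Apoc4 and the lower Tomm40, both beside Apoc1. Apoe, in the same cluster and made by macrophages and other cells as well as liver, had 942, 513 and 1323 counts with vehicle and 1575, 651 and 1075 with inotodiol. Smyd1, a muscle gene next to Fabp1, had 2495, 3166 and 3226 counts against 2841, 3092 and 3016. Afp, the fetal counterpart of albumin and its neighbour, had 0 counts in every library.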

How the data were processed

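Gene counts of 6 libraries were analysed, 3 per group, with groups taken from the sample titles. The deposited values are whole-number counts per gene symbol, made with Lexogen Quant-Seq libraries per the labels' protocols and with Bowtie2, bedtools and mm10 per the submitters' processing notes; the sources used here give no versions, annotation, strand setting or rule for reads matching several places. Levels of different genes were therefore not compared as amounts of transcript. Shares of counts and correlations across genes are given as descriptions only. Genes were filtered with filterByExpr (minimum count 10, minimum total 15), scaled with TMM and fitted in edgeR 4.0.16 under R 4.3.3 by the quasi-likelihood method, group as the only term, Benjamini-Hochberg adjustment over all genes; the code was tested on simulated data. CPM per library are unscaled unless stated. Replicate numbers were not used to pair the samples in the main fit. Correlations of deviations from the group means were -0.081, 0.11 and 0.022 for libraries of the same number. They ran from -0.127 to 0.097 for libraries of different numbers. With 3 libraries per group these values cannot show whether the mice were paired. Alternatives were RLE and library-total scaling, no filter, DESeq2 1.42.0, the replicate block and each library left out. All liver transcripts are named, most with counts per library, beyond the planned 3 with most counts in each functional group and Wfdc21; of each other list up to 3 were to be named; F2, Ambp, Cyp2c29, Hnf4a, Clec4f, Fabp2 and the neighbours were named after their values were seen. The liver transcripts and all lists were chosen with earlier results of these data known. Some listed genes are not reported here. P-values of the main fit measure the spread among 3 mice per group. The fit without a filter also called genes high in 1 library only, so its calls are not read that way.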

Additional observations from a re-analysis of the deposited data

How the results depend on the processing

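Against 0 calls over all genes by edgeR, DESeq2 made 1 and edgeR without a filter on low counts made 95; with single libraries left out the count ran from 0 to 25, the 25 coming without inotodiol replicate 3. For the liver transcripts these counts were 0, 1, 25 and 0 to 9, and for the other liver genes 0, 0, 19 and 0 to 12. RLE scaling, library totals and the replicate block gave 0 calls in each, as in the unpaired fit. The 95 calls without a filter included genes high in 1 library only, such as Amy2a5. The difference in summed log2 CPM, 2.54, ran from 1.82 without vehicle replicate 1 to 3.21 without inotodiol replicate 3, and was 2.66 with TMM, 2.53 without the Serpina1 genes and 2.50 without Alb. Fitted log2 fold changes of the 27 genes tested stayed above 0 in all 297 values under the 11 alternatives, from 0.93 to 6.04; the choice of the genes fixed that direction. Library totals moved the median of all genes to -0.12. The cause of these differences was not tested. Vehicle 1, with 216 counts over 29 genes, limits every ratio against it.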
